A study of Mus musculus with 12 samples.

Results

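The response of wild-type (WT) mouse ear skin to imiquimod cream was read from 2 of the 12 arrays of the series, picked by their sample labels. One array held ear skin taken 4 h after the cream (IMQ WT) and the other held untreated ear skin (untreated WT). The other 10 arrays came from mice labelled Tlr7-/-, Tlr9-/-, Tlr7-/-Tlr9-/- and Card14-/-, each with IMQ and untreated ear skin. They serve here to show how far the untreated pools lay apart and how the knockouts responded. All mice were of strain C57BL/6J. In the IMQ groups both ears had received 62.5 mg of a cream with 5% imiquimod, and the untreated groups had received nothing. Every array carried 200 ng of labelled RNA from a pool of 6 to 8 mice, so the spread between single mice cannot be seen. The labels used here give no age or sex, and no allele beyond the gene name. No group received cream without imiquimod, so imiquimod, the cream base, handling and time cannot be told apart in any difference between IMQ WT and untreated WT.

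Imiquimod is a small imidazoquinoline that activates TLR7, a receptor of endosomes that senses single-stranded RNA. TLR7 signals through MYD88 to IRF7, which turns on type I interferons, and to NF-kB and AP-1, which turn on chemokines and cytokines. Type I interferons act on their receptor to induce a large set of antiviral genes, and repeated imiquimod cream is widely used to provoke psoriasis-like inflammation in mouse skin. CARD14 is a keratinocyte scaffold protein upstream of NF-kB, and TLR9 senses unmethylated CpG DNA.

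Levels are log2 quantile-normalized array signals, and each gene was read on 1 probe of 60 bases, the one with the highest mean. A gene is said to rise or fall where limma gave a Benjamini-Hochberg adjusted p under 0.05 over the 24070 genes tested and a log2 difference of at least 1, which is 2-fold. Since each WT group had 1 array, the WT response has no replicate of its own. Its spread came from the repeat arrays of IMQ Tlr7-/-Tlr9-/- and IMQ Card14-/-, with 2 residual degrees of freedom, and these repeats may share an RNA pool. Their median SD was 0.0472, against a median SD of 0.149 between the 5 untreated arrays. IMQ WT was therefore also set against the 5 untreated arrays as 1 group, with 4 residual degrees of freedom. Both comparisons share the IMQ WT and untreated WT arrays and are not independent. Where 1 side was not well above background, a fold is a lower bound, taken against the higher of the gene's own signal and the lowest log2 level well above background on that array, 4.22 in IMQ WT and 3.86 in untreated WT. The WT arrays lay on 1 slide, in different rows. IMQ WT had 61.1% of its spots well above background and a 75th percentile of the processed signal of 527, against 64.1% and 1234 in untreated WT. Row, signal and treatment cannot be told apart. Tlr7 read 8.12 in IMQ WT and 7.94 in untreated WT, Tlr9 read 11.39 and 11.22, and Card14 read 11.26 and 10.82, with no call for any of the 3 genes. In the arrays labelled Tlr7-/- or Tlr7-/-Tlr9-/- Tlr7 read 4.03 to 5.85, against 7.36 to 8.12 in the others. Card14 read 9.63 to 9.89 in the arrays labelled Card14-/-, against 10.82 to 11.65 in the others. Tlr9 read 10.95 to 11.33 in the arrays labelled Tlr9-/- or Tlr7-/-Tlr9-/-, within or close to the 11.05 to 11.39 of the others, and whether its probe lies in the deleted part is not given in the labels.

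In the WT response 3489 genes were called, 14.5% of those tested, of which 1884 rose (7.83%) and 1605 fell (6.67%). The median difference over all genes tested was -0.13. Against the untreated pools 3162 genes were called (13.1%), 1596 higher (6.63%) and 1566 lower (6.51%). The same direction was called in both comparisons for 2383 genes (9.9%), 1320 higher (5.48%) and 1063 lower (4.42%). Rises made up 54% of the called WT response with quantile normalization, 75.75% with 75th percentile scaling, 73.89% with normexp background correction and 66.41% in the deposited log2 table. Against the untreated pools the share of rises was 50.47%, with 76.02%, 77.37% and 69.17% in those 3 alternatives. The calls depend on which arrays supply the spread. A spread taken from the disagreement between the knockout responses holds differences between genotypes as well as between arrays. For Ifit1 those responses ran from -0.74 in Tlr7-/- to 4.30 in Card14-/-, so with that spread its p does not measure array or pool variation alone. When the spread came from the disagreement between the 4 knockout responses, 6 rises and 5 falls remained past the threshold, with 7386 genes at an unadjusted p under 0.05, against 14519 with the repeat arrays. Among the rises left were Hmox1 (4.12) and the anion exchanger Slc26a4 (at least 9.23-fold), and among the falls the chemokine Ppbp (at least 2.02-fold), all named after their values were seen. The call for Slc26a4 was lost when either Card14-/- repeat was left out (adjusted p = 0.05605). With that spread the limma adjusted p was 0.2006 for Ifit1, 0.1065 for Cxcl10 and 0.05747 for Cxcl1.

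The genes with the largest rises were read on probes that hold runs of GA repeats. Of the 15 named genes that rose most in both comparisons, 14 had GAGAGA in the probe, and 14 had an untreated WT value below all 4 other untreated arrays. Over all genes tested 2.89% had GAGAGA in the probe, and 26.1% had such an untreated WT value. Pole2, a subunit of DNA polymerase epsilon, read 14.04 in IMQ WT and 7.46 in untreated WT, a log2 difference of 6.59. Its other probe, without such letters, had -1.43. Kcnq1, a potassium channel, read 11.95 in IMQ WT and 5.68 in untreated WT, and its other probes had -0.76 to 0.13. Itga1, an integrin subunit that binds collagen, read 13.48 in IMQ WT and 7.68 in untreated WT, and its other probes had -0.04 to 1.74. In these 3 genes no other probe had a difference near that of the probe used. The probes are printed on mm9 coordinates with the longest GA repeat in capitals.
Pole2 (chr12:70322698-70322974, minus strand): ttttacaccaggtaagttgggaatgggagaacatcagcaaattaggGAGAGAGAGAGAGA
Kcnq1 (chr7:150295215-150295274, plus strand): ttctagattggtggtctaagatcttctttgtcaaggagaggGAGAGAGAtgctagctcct
Itga1 (chr13:115821387-115825525, minus strand): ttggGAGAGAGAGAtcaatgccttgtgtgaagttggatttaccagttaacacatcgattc
Cd300lf (chr11:114977796-114977855, minus strand): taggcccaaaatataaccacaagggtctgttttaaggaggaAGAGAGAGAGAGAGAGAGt

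Over all genes tested the share that rose went up with the longest run of purines in the probe. It was 6.21% of 11891 genes with runs of 0 to 5 bases, 6.999% of 8887 with 6 to 8, 10.97% of 2379 with 9 to 11, 17.3% of 629 with 12 to 14, 41.3% of 184 with 15 to 19 and 77% of 100 with 20 or more. Of 127 genes whose probe holds GAGAGAGA 105 rose and 0 fell, with a median of 4.07. These probes were also lower in untreated WT than in the other untreated arrays, by a median of -0.75, and their median response was 2.40 in Tlr7-/-, 2.96 in Tlr9-/-, 1.51 in Tlr7-/-Tlr9-/- and 1.34 in Card14-/-. Probes with CTCTCTCT went the other way, with 6 rises and 37 falls among 93 genes. The 22625 genes whose probes hold none of these repeat letters had 1570 rises (6.94%) and 1495 falls (6.61%). Where a called gene had other probes, all of them had its sign in 193 of 422 rises (45.7%) and in 235 of 374 falls (62.8%).

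**Figure D1:**
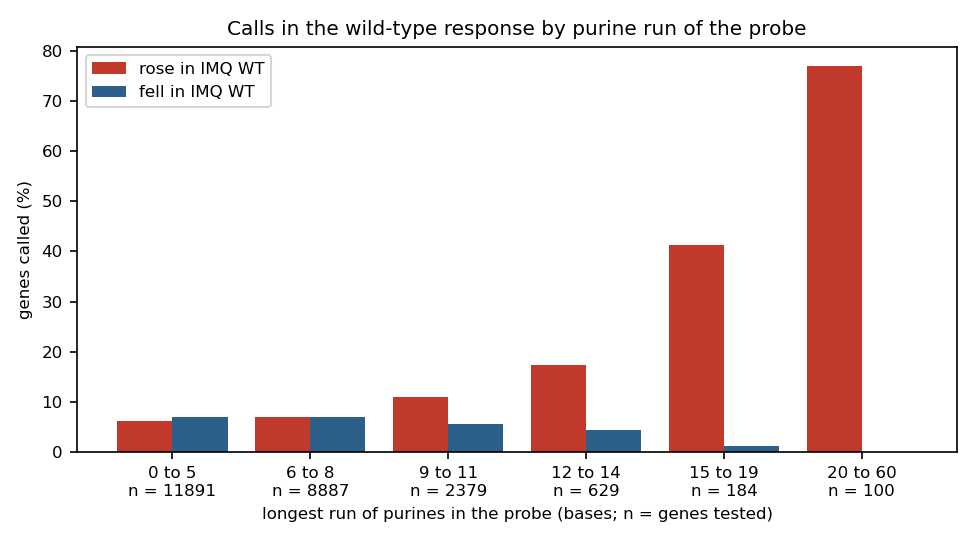
Share of genes tested that rose (red) or fell (blue) in IMQ WT against untreated WT, in percent, by the longest run of purines in the probe, with the number of genes under each bin. The share that rose is 6.21% in the bin with the shortest runs and 77% in the bin with the longest, where 0 genes fell.

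The probes of 3 of the 10 genes that fell most in both comparisons share other letters. Grn, the precursor of granulins, read 12.95 in IMQ WT and 17.94 in untreated WT, and its other probes had 0.09 and 0.10. Kcnh2, a potassium channel, was not well above background in IMQ WT and fell at least 11.95-fold, while its other probe had 0.27. Syt10, a synaptotagmin with 1 probe here, read 4.43 in IMQ WT, not well above background, and 11.44 in untreated WT, a fall of at least 129-fold. The call for Syt10 was lost when either Card14-/- repeat was left out (limma adjusted p = 0.06731). All 3 probes hold GCCACNGTCC, shown in capitals, a motif noticed after the values were seen. Of the 11 genes tested whose probe holds it 4 fell (36.4%, against 6.67% of all genes tested) and 0 rose. The other genes with the motif had no call.
Grn (chr11:102294591-102294650, plus strand): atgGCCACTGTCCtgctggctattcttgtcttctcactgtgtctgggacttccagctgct
Kcnh2 (chr5:23827188-23827460, minus strand): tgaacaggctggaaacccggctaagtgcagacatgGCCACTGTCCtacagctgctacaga
Syt10 (chr15:89612967-89613026, minus strand): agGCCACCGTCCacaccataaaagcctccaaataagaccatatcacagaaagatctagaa

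Untreated WT was checked against the 4 other untreated arrays for each change. IMQ WT lay outside the range of all 5 untreated arrays in 73.5% of genes tested, above it in 28.9% and below it in 44.6%, and untreated WT lay outside the range of the other 4 in 52.7%. Of the called genes 243 had an IMQ WT value inside the untreated range, 145 rises and 98 falls. In 831 of the 1884 rises untreated WT was the lowest untreated array, and in 750 of the 1605 falls it was the highest. Over all genes tested it was the lowest in 26.1% and the highest in 26.6%. The calls use the untreated WT value themselves, so part of the excess comes from the way they are made. Hmox1, which breaks down haem, is a clear case of a low untreated WT value. It read 13.53 in IMQ WT, 9.41 in untreated WT and 12.91 to 13.12 in the other untreated arrays. Its WT response of 4.12 became 1.24 against the untreated pools (limma adjusted p = 0.536). Saa3, an acute-phase protein, read 7.11 in IMQ WT and 9.34 in untreated WT, against 4.88 to 6.32 in the other untreated arrays, so its fall of 2.23 came with a high untreated WT value. Krt6b, a keratin of stressed epidermis, had the same pattern, with 11.11 in IMQ WT, 13.40 in untreated WT and 10.33 to 12.25 elsewhere. Cxcl5, a neutrophil chemokine, was not well above background in IMQ WT and fell at least 4.97-fold, with 6.53 in untreated WT and 3.15 to 4.81 in the other untreated arrays. Neither Saa3, Krt6b nor Cxcl5 was called against the untreated pools. The largest named changes with IMQ WT inside the untreated range were rises of 3 keratin-associated proteins of hair, Krtap19-9b (2.73), Krtap19-3 (2.22) and Krtap6-1 (2.203), and falls of Myo3b (-2.39), Dlgap3 (-2.32) and Kcnip1 (-2.19).

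**Figure D2:**
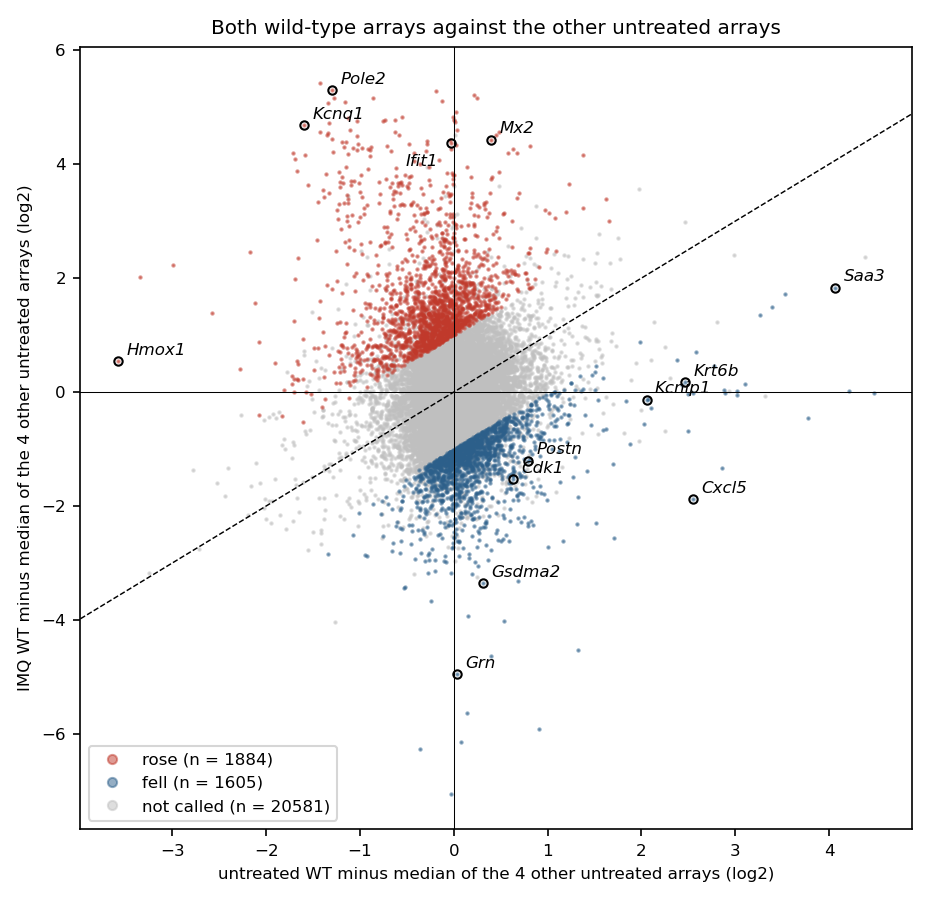
Each point is a gene, placed by untreated WT (horizontal) and IMQ WT (vertical), both minus the median of the 4 other untreated arrays in log2 units, and points on the dashed line have equal values in both WT arrays. Ifit1 and Mx2 lie near 0 on the horizontal axis, while Hmox1 lies far to the left and Saa3, Krt6b and Cxcl5 far to the right.

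Antiviral genes induced by interferon rose in number and also stood above the other untreated arrays. Of 51 members tested 28 rose (54.9%) and 2 fell (3.92%), against 7.83% and 6.67% of all genes tested. Of the rises 27 were also called against the untreated pools, while 5.48% of all genes tested rose in both comparisons. The median difference was 1.15, against -0.13 over all genes tested. Ifit1, which binds viral RNA that lacks host cap marks, read 10.75 in IMQ WT and 6.35 in untreated WT, with 5.72 to 6.72 in the other untreated arrays. That is a 21.1-fold rise (log2 4.40, limma adjusted p = 0.00259). Mx2, a dynamin-like GTPase that restricts viruses, read 10.26 in IMQ WT and 6.23 in untreated WT (adjusted p = 0.00259). Oasl1, of the oligoadenylate synthetase family, read 11.17 in IMQ WT and 7.53 in untreated WT (adjusted p = 0.00347). In each of these 3 genes IMQ WT stood above every untreated array by more than 3 log2 units.

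Further members with large rises were Rsad2 (viperin), with 10.02 in IMQ WT and 6.51 in untreated WT, and Cmpk2, a nucleotide kinase beside it, with 10.69 and 7.68. Isg15, a ubiquitin-like protein joined to other proteins, read 13.37 in IMQ WT and 10.38 in untreated WT, and Usp18, which removes it, read 10.40 and 7.55. The IFIT genes Ifit2 (1.82), Ifit3 (2.28) and Ifit3b (1.81), the GTPase Mx1 (2.80), Bst2 (1.85), which tethers budding virus, and the DNA-binding genes Ifi204 (1.18), Ifi205 (1.30) and Mndal (1.63) also rose. Zbp1, a sensor of Z-form nucleic acid, had the smallest rise, 1.00. The members that fell were Slfn4, not well above background in IMQ WT (at least 1.39-fold), and Lgals9 (-1.15), and neither was called against the untreated pools. Among the members with no call were Ifitm3, with 13.83 in both WT arrays, Oas1a (-0.16), Isg20 (0.19), Eif2ak2 (0.72), which halts translation on viral RNA, and Xaf1 (0.92). In a bulk sample more RNA of a gene per cell and more cells that carry it cannot be told apart.

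**Figure D3:**
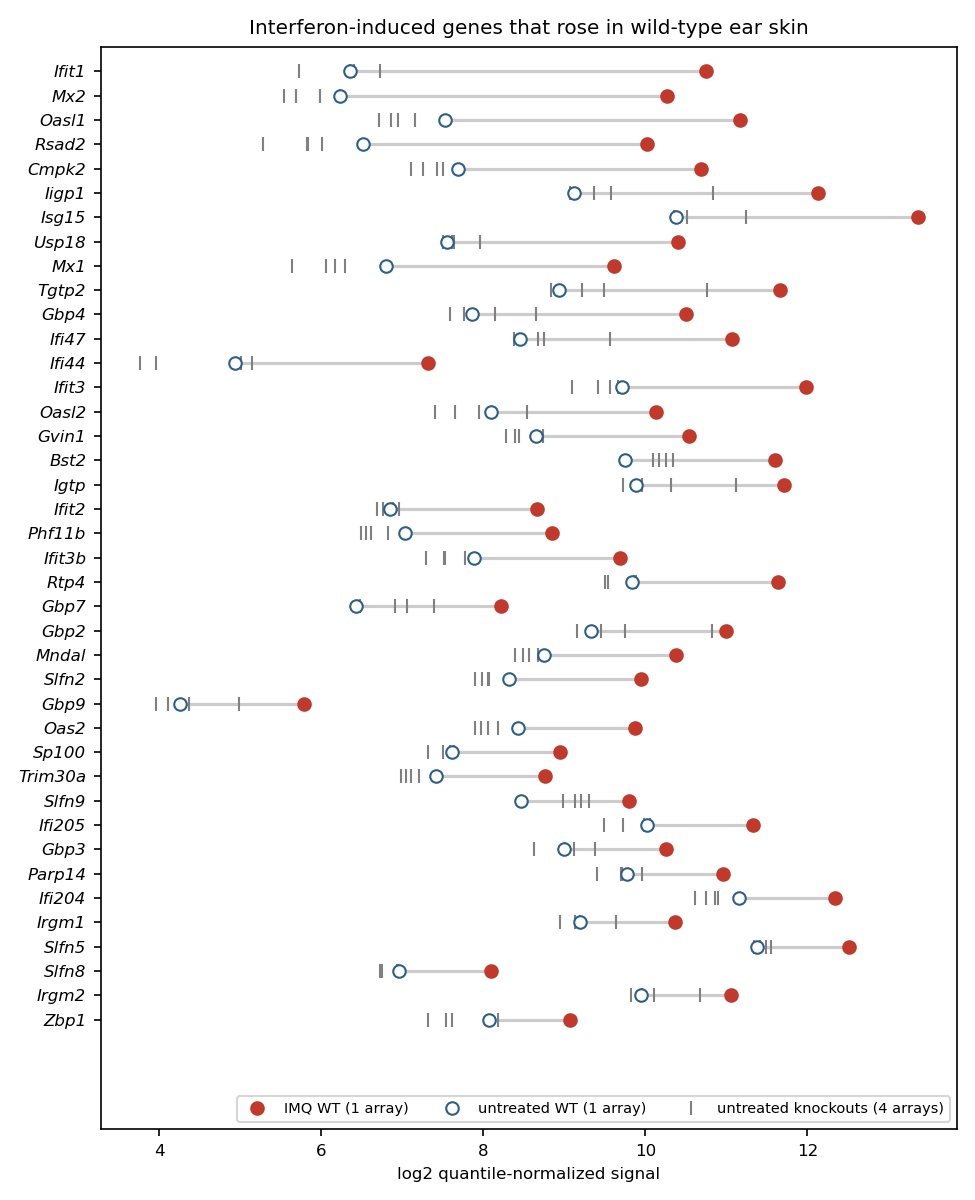
Log2 quantile-normalized signal of the 28 antiviral genes and 12 interferon-induced GTPases that rose, in IMQ WT (filled), untreated WT (open) and the 4 untreated knockout arrays (ticks), ordered by the WT response. Most open circles lie close to the ticks, while several GTPases have 1 untreated knockout array close to IMQ WT.

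The interferon-induced GTPases attack the vacuoles of intracellular microbes and respond most to interferon gamma. Among 17 members tested 12 rose (70.6%, against 7.83% of all genes tested) and 0 fell, with a median of 1.53. Iigp1 read 12.12 in IMQ WT and 9.12 in untreated WT, and the highest other untreated array read 10.84. Tgtp2 read 11.66 in IMQ WT and 8.93 in untreated WT, with 10.76 as the highest of the other untreated arrays. Gbp4 rose by 2.65 on a probe with repeat letters, Ifi47 by 2.62 and Gvin1 by 1.89. The GTPases were less even between untreated pools than the antiviral genes, and 8 of the 12 rises were also called against the untreated pools. Those that were not are Tgtp2, Igtp, Gbp2 and Irgm2, and Iigp1 was no longer called when any 1 untreated array other than that of Tlr9-/- was left out (limma adjusted p = 0.05046 to 0.06029). Gbp2 read 10.995 in IMQ WT and 9.32 in untreated WT, against 9.16 to 10.82 in the other untreated arrays, so 1 untreated pool lay close to IMQ WT.

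Few of the genes that carry or sense the interferon signal were called. Of 25 members 3 rose (12%, against 7.83% of all genes tested) and 0 fell, with a median of 0.01. Irf7, the factor that drives type I interferon genes after TLR7, read 13.19 in IMQ WT and 11.61 in untreated WT, with 11.24 to 11.42 in the other untreated arrays. Dhx58, an RNA sensor of the RIG-I family, rose by 1.01, and its call was lost when either Card14-/- repeat was left out (limma adjusted p = 0.08469). The transcription factors Stat2 (0.77) and Irf9 (0.61), the factor Irf1 (0.93) and the RNA sensor Ddx58 (0.76) had positive differences under the size limit, and the adaptor Mavs had -0.80.

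Of 24 interferon and interferon receptor genes 12 passed the signal filter, and Ifnb1 and Ifng were not among them. Ifna11 read 8.26 in IMQ WT and 4.49 in untreated WT on a probe with repeat letters, while Ifna1 had 0.47 and Ifna5 had -0.01. Ifnar1, a chain of the type I interferon receptor, rose by 1.37, but its other probes had -0.25 to 1.06. Among 17 endosomal TLRs and adaptors 3 rose (17.6%, against 7.83% of all genes tested) and 0 fell. They were Hmgb1 (2.51), a DNA-binding protein whose other probes had 0.58 to 1.31, Traf6 (1.29), a ubiquitin ligase after MYD88 whose other probes had -0.50 to 1.102, and Cd300lf on its repeat probe. Myd88 read 11.71 in IMQ WT and 11.70 in untreated WT, and Unc93b1, which brings TLR7 and TLR9 to endosomes, had 0.24. Of 10 genes around CARD14 and A20 1 rose (10%, against 7.83% of all genes tested). It was Tnip3, an inhibitor of NF-kB, with 7.09 in IMQ WT and 5.16 in untreated WT, while Tnfaip3 (A20) had 0.79 and Malt1 had 0.49.

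Promoters of the genes that moved together were searched for the letters GAAANNGAAA, a core of the interferon-stimulated response element, and GGGANTTTCC, a form of the NF-kB site, on both strands and counting overlapping matches. The sequences are 300 bases around each gene start, most of them upstream of it, and are those of RefSeq on GRCm38.p6. GAAANNGAAA was found in 3.99% of 27025 promoters, in 13 of the 20 promoters matched to the antiviral genes that rose and in 6 of the 19 matched to the antiviral genes that did not. It was found in 7 of the 8 promoters matched to the GTPases that rose. GGGANTTTCC was found in 0.466% of promoters, in 0 of the 13 matched to the monocyte and lymphocyte chemokines (Ccl20 among them), in 1 of the 3 matched to the NF-kB genes that rose and in 1 of the 20 matched to those that did not. Matches are shown in capitals for Ifit1, Isg15 and Cxcl10, which hold 2, 3 and 1 of the first motif, and for Cxcl1, which holds 1 of the second. A match is a description of the letters and not a tested site.
Ifit1 (chr19:34640639-34640938, plus strand): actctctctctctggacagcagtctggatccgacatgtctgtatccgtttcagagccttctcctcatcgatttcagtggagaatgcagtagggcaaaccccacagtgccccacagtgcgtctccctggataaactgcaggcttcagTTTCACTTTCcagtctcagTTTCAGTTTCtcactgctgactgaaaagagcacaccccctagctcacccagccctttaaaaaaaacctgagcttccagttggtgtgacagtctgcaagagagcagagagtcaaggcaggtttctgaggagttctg
Isg15 (chr4:156200769-156201068, minus strand): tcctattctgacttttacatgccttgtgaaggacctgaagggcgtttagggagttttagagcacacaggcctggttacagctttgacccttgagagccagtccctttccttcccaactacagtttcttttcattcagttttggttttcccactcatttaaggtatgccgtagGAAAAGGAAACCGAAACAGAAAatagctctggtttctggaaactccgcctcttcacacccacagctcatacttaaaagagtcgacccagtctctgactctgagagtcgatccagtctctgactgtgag
Cxcl10 (chr5:92348840-92349139, minus strand): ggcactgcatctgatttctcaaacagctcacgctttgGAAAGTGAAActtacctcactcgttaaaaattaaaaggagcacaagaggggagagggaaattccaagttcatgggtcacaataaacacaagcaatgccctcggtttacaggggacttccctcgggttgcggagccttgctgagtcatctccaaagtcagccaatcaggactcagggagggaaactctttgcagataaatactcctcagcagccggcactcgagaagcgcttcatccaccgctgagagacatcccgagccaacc
Cxcl1 (chr5:90890995-90891294, plus strand): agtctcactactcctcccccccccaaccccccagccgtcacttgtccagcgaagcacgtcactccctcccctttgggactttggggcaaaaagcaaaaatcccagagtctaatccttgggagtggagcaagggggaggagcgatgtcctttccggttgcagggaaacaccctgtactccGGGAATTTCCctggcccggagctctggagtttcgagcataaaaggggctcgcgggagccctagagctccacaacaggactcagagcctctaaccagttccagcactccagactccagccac

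Chemokines rose in several families. Cxcl10, which draws CXCR3-bearing T cells and is induced by interferon, read 11.59 in IMQ WT and 7.13 in untreated WT, a 22.01-fold rise (limma adjusted p = 0.00259). The other untreated arrays had 6.70 to 9.40, so the untreated pools themselves lay apart, and IMQ WT was above all of them. Without the untreated Tlr7-/-Tlr9-/- array its call against the pools was lost (adjusted p = 0.05006). Cxcl9, of the same receptor, read 8.41 in IMQ WT and 6.31 in untreated WT, but 1 of the other untreated arrays had 9.07. Cxcl11 had 0.88 and no call.

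Of 20 chemokines that draw monocytes and lymphocytes 9 rose (45%, against 7.83% of all genes tested) and 0 fell, with a median of 0.52. Of these rises 8 were also called against the untreated pools. Ccl20, the ligand of CCR6 on lymphocytes and dendritic cells, read 10.701 in IMQ WT and 6.39 in untreated WT, against 5.59 to 7.22 in the other untreated arrays. The CCR2 ligands Ccl2, Ccl7 and Ccl12 read 11.61, 11.88 and 10.30 in IMQ WT, against 9.68, 9.67 and 7.82 in untreated WT. In these 4 genes IMQ WT was above all 5 untreated arrays. The macrophage chemokines Ccl4 (2.78) and Ccl3 (1.48), Ccl17 (1.69), a ligand of CCR4, and Ccl24 (1.28), an eosinophil chemokine, rose as well. Ccl5 rose by 1.46, but IMQ WT at 9.03 lay under the highest untreated array at 9.10. Among the CXCR2 ligands, which draw neutrophils, Cxcl1 read 10.62 in IMQ WT and 7.002 in untreated WT, a 12.3-fold rise, while Ppbp and Cxcl5 fell. Pf4, a platelet chemokine kept in that list though not known as a CXCR2 ligand, had 0.37. Of 14 chemokine receptors 2 rose (14.3%, against 7.83% of all genes tested), Ccr7 (1.68) among them, and neither rise was called against the untreated pools.

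The IL-1 and IL-36 genes had 0 rises and 3 falls (17.6%, against 6.67% of all genes tested) among 17 members. Il1f8 (IL-36 beta) read 10.03 in IMQ WT and 11.39 in untreated WT, Il1f9 (IL-36 gamma) read 8.37 and 9.65, and Il1f5, the IL-36 receptor antagonist, read 12.52 and 13.65. All 3 were also lower than every untreated array. Il1b read 7.55 in IMQ WT and 6.80 in untreated WT with no call, and the other untreated arrays had 4.72 to 5.97. In the IL-6 and IL-20 families 3 of 18 members rose (16.7%, against 7.83% of all genes tested) and 2 fell (11.1%, against 6.67%). Il22ra1, a receptor chain for IL-20, IL-22 and IL-24, read 10.09 in IMQ WT and 7.49 in untreated WT, and Il20, a keratinocyte cytokine, read 6.92 and 5.43. Il6 read 5.85 in IMQ WT and 4.00 in untreated WT, a call that was lost when either Card14-/- repeat was left out (limma adjusted p = 0.05443) and was absent against the untreated pools. Il25, an epithelial cytokine, rose at least 2.93-fold, and its call was lost when any 1 of the 4 repeat arrays was left out (limma adjusted p = 0.05539 to 0.07225). Il17a, Il17f and Il23a were too dim for the filter, and Il22 had no call.

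Growth factors and TNF family members rose in small numbers. Of 18 TNF superfamily genes 5 rose (27.8%, against 7.83% of all genes tested) and 0 fell, with a median of 0.43. Tnfsf11 (RANKL), the ligand of osteoclast and dendritic cell receptors, was at 6.86 in IMQ WT and not well above background in untreated WT, a rise of at least 8.05-fold. Tnfrsf9 (4-1BB), a co-stimulatory receptor, read 9.04 in IMQ WT and 6.62 in untreated WT, Tnfsf10 (TRAIL) read 8.79 and 7.05, and Tnf had 0.67 with no call. Of 9 ligands of the EGF receptor family 4 rose (44.4%, against 7.83% of all genes tested) and 0 fell, with a median of 0.81. Epgn rose at least 6.85-fold, Areg by 1.48, Ereg by 1.09 and Tgfa by 1.09, and of these Epgn was also called against the untreated pools. The other probe of Tgfa had -0.47, and its call was lost when either Card14-/- repeat was left out (limma adjusted p = 0.0693). Vegfa, which drives vessel growth, rose by 3.37 on 1 probe, while its other probes had -0.24 to 0.68.

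The AP-1, immediate early and NF-kB lists had rises and 0 falls. Of 13 AP-1 factors 5 rose (38.5%, against 7.83% of all genes tested), with a median of 0.87. Fosl1 read 7.83 in IMQ WT and 5.50 in untreated WT, and Jun read 14.86 and 13.34. Both were above every untreated array, and both were also called against the untreated pools, unlike Batf2 (1.35), Fosb (1.07) and Jund (1.01). Of 34 EGR, NR4A and other immediate early genes 8 rose (23.5%), with a median of 0.54. The largest were Arc (2.12), a synaptic immediate early gene, Dusp2 (1.48), a MAP kinase phosphatase, and Nr4a1 (1.47), a nuclear receptor. Egr4 was called too, but neither WT array was well above background. The calls for Batf2 and Egr4 were lost when either Card14-/- repeat was left out (limma adjusted p = 0.08515 and 0.08057). Of 30 NF-kB subunits, inhibitors and targets 3 rose (10%, near the share of all genes), with a median of 0.34. Nfkbia, the inhibitor IkB alpha, read 15.56 in IMQ WT and 14.22 in untreated WT, Bcl3, a nuclear co-regulator, read 11.43 and 9.89, and Icam1, an adhesion molecule, rose by 1.27 on a probe whose partner had -0.73. Nfkbiz, listed with the IL-17 axis, rose by 1.06.

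Of 38 cornified envelope genes of the epidermis 3 rose (7.89%, against 7.83% of all genes tested) and 5 fell (13.2%, against 6.67%), with a median of -0.24. Rptn (repetin) fell at least 6.83-fold. Sprr4, a small proline-rich protein, read 7.98 in IMQ WT and 9.89 in untreated WT, and the desmosomal cadherin Dsg1a read 12.43 and 13.76. The rises were the late envelope genes Lce3b (1.32), Lce3c (1.44) and Lce3d (1.36), and in Lce3b IMQ WT lay inside the untreated range. Of 9 gasdermins, which include pore-forming proteins of pyroptosis, 0 rose and 5 fell (55.6%, against 6.67% of all genes tested), with a median of -1.23. Gsdma2 read 4.36 in IMQ WT and 8.02 in untreated WT, with 7.56 to 8.00 in the other untreated arrays. Gsdmc read 5.89 in IMQ WT and 8.00 in untreated WT, and Gsdmc3 read 7.21 and 8.99. IMQ WT was below every untreated array in these 3 genes, although the call for Gsdma2 was lost when either Card14-/- repeat was left out (limma adjusted p = 0.05189). Krt14 and Krt10, the main keratins of basal and upper epidermis, read 18.18 and 18.001 in IMQ WT, against 18.20 and 18.07 in untreated WT.

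Genes of the hair shaft and inner root sheath had 23 rises (53.5%, against 7.83% of all genes tested) and 0 falls among 43 members. Their median was 1.21, but none of the rises was called against the untreated pools. Tchh (trichohyalin) read 14.60 in IMQ WT and 13.06 in untreated WT, against 10.91 to 14.49 in the other untreated arrays. Krt25, a keratin of the inner root sheath, read 12.81 in IMQ WT and 11.38 in untreated WT, against 9.40 to 13.16 elsewhere. IMQ WT lay outside the untreated range in 7 of the 43 members. The untreated pools differed in these genes by more than the WT response. The stage of the hair cycle in each pool is not given in the labels and was not tested.

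Cell cycle genes went down in part, with 0 rises and 5 falls (13.5%, against 6.67% of all genes tested) among 37 members and a median of -0.48. Cdk1, the kinase of mitotic entry, read 5.78 in IMQ WT and 7.94 in untreated WT, and Bub1b, of the spindle checkpoint, read 5.80 and 7.26. All 5 falls, which also include Aurkb, Cdc25c and Kif20a, were called against the untreated pools. The WT calls for Aurkb, Cdc25c and Kif20a were lost with 75th percentile scaling, and those for Bub1b and these 3 genes with normexp. Of 26 collagen and matrix genes 1 rose (3.85%, against 7.83% of all genes tested) and 4 fell (15.4%, against 6.67%). Postn (periostin) read 12.55 in IMQ WT and 14.55 in untreated WT, below the 13.58 of the lowest untreated array, and its 3 other probes had -1.79 to -1.21. The other falls, Fbn1 (-1.25), Tnc (-1.17) and Col6a3 (-1.07), were not called against the untreated pools. The rise in Col15a1 was read on a probe with repeat letters, and its other probe had -0.96.

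Markers of some cell types in ear skin were called. The 12 T cell markers had a median of 0.85, and 3 rose (25%) and 1 fell (8.33%), against 7.83% and 6.67% of all genes tested. Cd3e read 12.21 in IMQ WT and 11.08 in untreated WT, Cd3d read 11.30 and 10.04, and Cd5 read 7.75 and 9.15. Of 12 endothelial markers 3 rose (25%, against 7.83% of all genes tested), with a median of 0.73. They were the junction genes Cldn5 (1.17) and Esam (1.00) and the secreted factor Egfl7 (1.02). Of 4 B cell markers Ms4a1 (CD20) read 8.63 in IMQ WT and 6.18 in untreated WT, and Pax5 rose by 1.19, a call lost without either Card14-/- repeat (limma adjusted p = 0.08719). The 4 B cell markers had 2 rises (50%) and 0 falls, with differences of -0.84 to 2.45. Of 9 dendritic and Langerhans cell markers 2 rose (22.2%, against 7.83% of all genes tested) and 0 fell. They were langerin (Cd207), the marker of Langerhans cells, with 1.102, and Ccr7, and neither was called against the untreated pools. Of 8 NK and innate lymphoid cell markers 1 rose (12.5%) and 0 fell. It was Klrd1 (1.26), also called against the untreated pools. The rises among T cell and endothelial markers and among chemokines were read in the same pair of arrays, and any link between them was not tested.

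Neutrophil markers gave no single direction, with 2 rises (18.2%) and 3 falls (27.3%) among 11 members, against 7.83% and 6.67% of all genes tested. Retnlg rose at least 4.35-fold, while Ly6g read 7.82 in IMQ WT and 8.99 in untreated WT, Mpo read 6.71 and 8.10, and S100a8 read 8.78 and 10.36. The call for Ly6g was lost when either Card14-/- repeat was left out (limma adjusted p = 0.05812). None of these 3 falls was called against the untreated pools, and in all 3 genes untreated WT was the highest untreated array. Of 10 melanocyte markers 3 fell (30%, against 6.67% of all genes tested). Tyrp1 read 9.08 in IMQ WT and 10.38 in untreated WT, and again untreated WT was the highest untreated array. Plasmacytoid dendritic cells, a main source of type I interferon after TLR7, had 2 rises among 9 markers (22.2%, against 7.83% of all genes tested). These were Bst2, itself induced by interferon, and Siglech on a probe with repeat letters, while Spib was not called and Tcf4 had 0.27. The 19 MHC class I and antigen processing genes, 22 cholesterol synthesis genes, 18 sebaceous gland genes, 11 fibroblast markers and 10 keratinocyte markers had 0 rises and 0 falls.

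**Figure D4:**
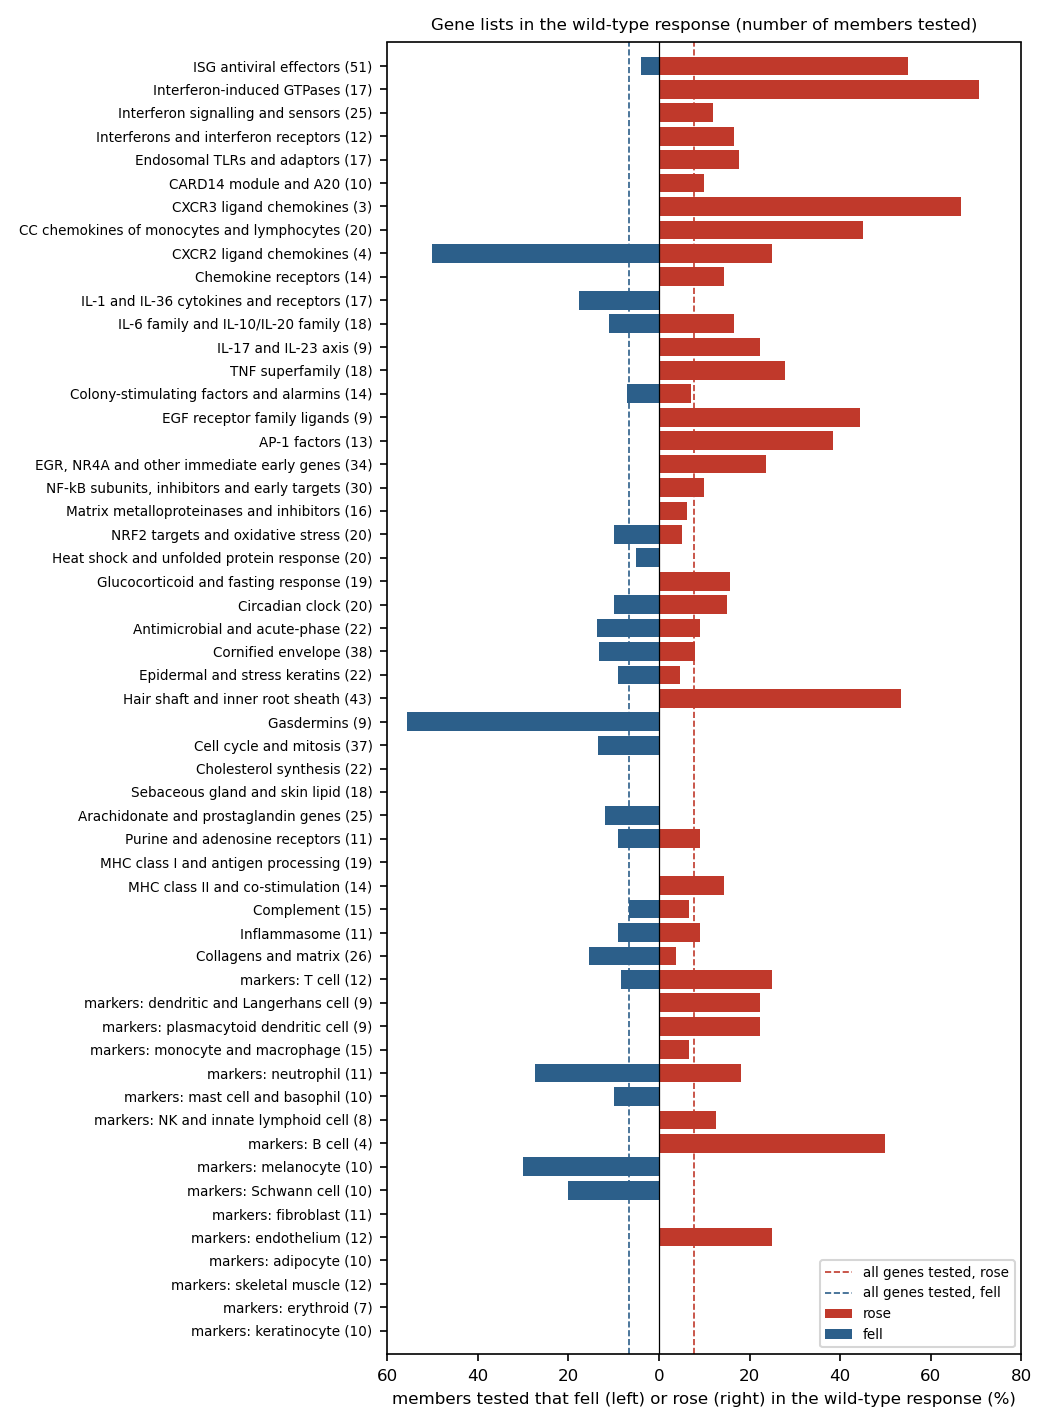
Share of tested members that fell (left, blue) or rose (right, red) in IMQ WT against untreated WT for each gene list, in percent, with the number of members tested in brackets and dashed lines at 6.67% and 7.83%, the shares of all genes tested. Antiviral genes, interferon-induced GTPases and hair genes have the longest bars to the right among lists of more than 10 members.

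Some genes outside the lists had large changes on probes without GA or CT repeats in both comparisons. They were picked after their values were seen. Tmem52b, a membrane protein, read 10.503 in IMQ WT and 5.27 in untreated WT. Ido2, an enzyme of tryptophan breakdown, rose at least 9.96-fold, a call lost without either Card14-/- repeat (limma adjusted p = 0.07194). Pik3ca, the catalytic subunit p110 alpha, read 13.57 in IMQ WT and 10.46 in untreated WT, on a probe with a run of 17 purines, and its response was 2.42 in Tlr7-/-, 2.10 in Tlr9-/-, 1.34 in Tlr7-/-Tlr9-/- and 0.61 in Card14-/-. Among the falls Tac4, a tachykinin precursor, read 5.69 in IMQ WT and 8.88 in untreated WT, and Rnase2b, a ribonuclease of the eosinophil family, read 9.83 and 12.18. Among listed genes, Casp4 (1.90) of the inflammasome list, the caspase that senses lipopolysaccharide inside cells, and Cd83 (2.29) of the co-stimulation list, a surface protein of mature dendritic cells, rose. Of 20 clock genes 3 rose (15%, against 7.83% of all genes tested) and 2 fell (10%, against 6.67%). The rises were in Cry1 (1.91), Per3 (1.21) and Npas2 (at least 2.03-fold), and the falls in Dbp (-1.06) and Arntl (-1.05). Of these, 2 rises and 1 fall were also called against the untreated pools. Other probes of Cry1, Per3 and Arntl had the opposite sign.

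The WT response was set against the mean of the 4 knockout responses, each IMQ minus untreated of the same genotype. The Tlr7-/- and Tlr9-/- pairs lay on the slide of the WT arrays, while all IMQ Tlr7-/-Tlr9-/- and IMQ Card14-/- arrays, which also supply the spread, lay on another slide and in another scan than their untreated arrays. For those genotypes slide, scan and treatment cannot be told apart. The WT response was higher in 841 genes (3.49%) and lower in 501 (2.08%), 1342 in all (5.58%). When any 1 of the 4 repeat arrays was left out limma called 0 genes, with 8692 to 8891 genes at an unadjusted p under 0.05, and with the spread of the knockout responses it also called 0, with 2225. The differences that follow were thus called only with all 4 repeat arrays. Set against the Tlr7-/- and Tlr9-/- responses alone, within 1 slide, the WT response was higher in 448 genes and lower in 160, of which 387 and 131 were also called with all knockouts, an alternative chosen after seeing the data. Within that slide 23 antiviral genes, 11 GTPases and 29 hair genes were higher, and 1 antiviral gene was lower. Of the 51 antiviral genes 20 were higher in WT and 1 lower, with a median difference of 0.77, and of the 17 GTPases 12 were higher. Ifit1 responded by 4.40 in WT, 4.30 in Card14-/-, 2.41 in Tlr9-/-, -0.55 in Tlr7-/-Tlr9-/- and -0.74 in Tlr7-/-. Cxcl10 had 4.46 in WT, 2.85 in Card14-/- and 1.38 in Tlr9-/-, against -0.49 in Tlr7-/-Tlr9-/- and -0.30 in Tlr7-/-. Its Tlr9-/- response started from a high untreated level, 9.40, against 6.70 to 7.34 in the other untreated arrays. IMQ Tlr9-/- read 10.78, above the 9.80 and 9.88 of the IMQ Card14-/- arrays. In Ifit1 and Cxcl10 the response was near or below 0 in both genotypes labelled as lacking Tlr7.

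Other groups had few or no calls in this difference, which does not show that they respond alike. None of the EGF receptor ligands, AP-1 factors or immediate early genes and 0 of 30 NF-kB genes were higher in WT, and 1 NF-kB gene was lower. Ccl20 responded by 4.31 in WT, 5.37 in Card14-/-, 3.95 in Tlr9-/-, 5.06 in Tlr7-/-Tlr9-/- and 3.99 in Tlr7-/-. Cxcl1 had 3.62 in WT and 3.74 to 4.35 in the knockouts. The WT response minus the mean of the knockouts was -0.28 for Ccl20 and -0.50 for Cxcl1, with no call. Hair genes were higher in WT in 30 of 43 members, against 3.49% of all genes tested. Their median response was 1.21 in WT and 2.15 in Card14-/-, against -0.49 in Tlr9-/-, -0.79 in Tlr7-/-Tlr9-/- and -4.49 in Tlr7-/-. The largest named excess in WT was in Clca3b, which rose at least 11.5-fold in WT. Krt71, Krt25 and Krtap28-13, all of hair, and Sntg1, a syntrophin that rose at least 7.18-fold, followed. The largest shortfalls were in Grn and Kcnh2 on the probes described above and in Zfy1, Nsrp1 and Slc22a30, each not well above background in IMQ WT. Zfy1 lies on the Y chromosome. Of 5 sex-linked markers 0 rose and 1 fell (20%, against 6.67% of all genes tested) in WT, with differences of -1.25 to 0.30. Their median response was -0.15 in WT and 5.39 in Tlr7-/-. The sex of the mice in each pool is not given in the labels, and its part in the Tlr7-/- responses was not tested. Sprr4 fell by 1.91 in WT, against -2.63 to -4.74 in the knockouts.

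**Figure D5:**
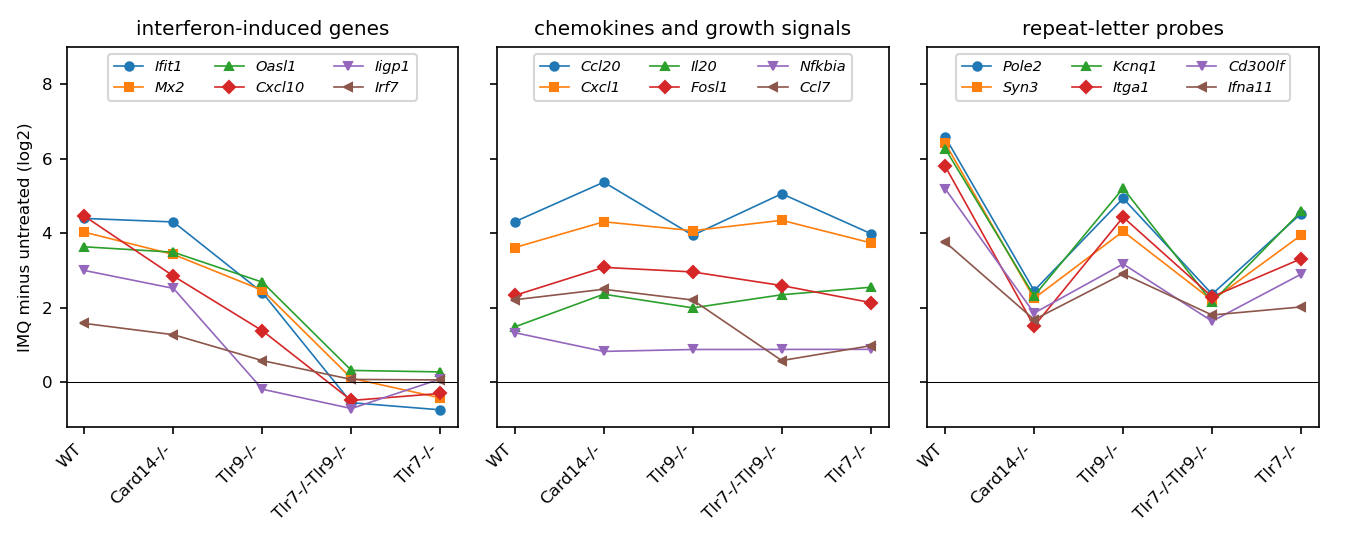
Response, IMQ minus untreated in log2 units, in WT and the 4 knockout genotypes for 6 interferon-induced genes, 6 chemokine and growth signal genes and 6 genes read on probes with repeat letters, 1 line per gene. Ifit1, Mx2 and Oasl1 are near 0 or below in Tlr7-/- and Tlr7-/-Tlr9-/-, Ccl20 and Cxcl1 are above 3 in all genotypes, and the repeat-letter probes are highest in WT.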

How the data were processed

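The deposited scanner files hold 1-colour processed signals of a mouse Agilent array as linear intensity, background-corrected by Agilent Feature Extraction per the file headers. The authors' log2 table, made with limma per the submitters' processing notes, served as an alternative, and its further steps are not known here. Its column medians lie between 6.38 and 6.40. From the scanner files control spots and 235 probes with outlier flags were left out, log2 intensities were quantile-normalized, and probes well above background on at least 2 of the 12 arrays were kept (37125 of 56605), giving 24070 genes with 1 probe each. Symbols were updated through RefSeq tables where the accession, symbol or synonym matched, and 12765 probes kept the file's name. Coordinates are mm9. Groups came from the labels. Group means were fitted with limma 3.58.1 in R 4.3.3 with Benjamini-Hochberg adjustment, and figures were drawn with matplotlib 3.10.9. The p-values measure the spread between repeat or untreated arrays and not between mice, and nothing in the labels says whether repeat arrays came from separate pools.

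The genes, gene lists and comparisons were chosen with earlier results of these data known. Named genes were Tlr7, Tlr9 and Card14, the 15 largest rises and 10 largest falls called in both comparisons, the 8 largest called changes with IMQ WT inside the untreated range, the 5 largest differences each way against the knockouts, and up to 4 called members of each list. Further genes are named beyond that rule and were chosen after their values were seen. Each comparison was tested on simulated data, and the alternatives tried were the scaling, background correction, value source, dim-probe filter, probe choice, size limit, source of spread, slide and each array left out. Results for a few genes are not reported here.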

Additional observations from a re-analysis of the deposited data

Results flagged for a closer look

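Of 194 genes named here, 78 had a WT response that differed from the mean of the 4 knockout responses (limma, Benjamini-Hochberg adjusted p under 0.05 and a log2 difference of at least 1), 55 higher and 23 lower in WT. All 78 calls were lost when any 1 of the 4 repeat arrays was left out. Each value is the WT response minus that mean, in log2 units. The antiviral genes were Ifit1 (3.04), Mx2 (2.63), Isg15 (2.399), Cmpk2 (2.23), Mx1 (2.08), Oasl1 (1.94), Usp18 (1.798), Ifit3 (1.72), Ifit2 (1.65), Bst2 (1.43), Ifit3b (1.42) and Mndal (1.27), all higher in WT, while Slfn4 was lower (-3.002). Interferon-induced GTPases gave Iigp1 (2.57), Tgtp2 (2.49), Ifi47 (2.102), Gbp4 (2.095), Igtp (2.01), Gbp2 (1.99), Irgm2 (1.42) and Gvin1 (1.33). Signalling genes and interferons gave Hmgb1 (1.69), Ifna11 (1.66), Casp4 (1.15), Ifnar1 (1.08) and Irf7 (1.08). Chemokines and their receptors gave Cxcl10 (3.597), Cxcl9 (2.87), Ppbp (-2.71), Ccl5 (1.52), Ccl4 (1.42) and Ccr7 (1.01). Cytokines, growth signals and receptors gave Tnfsf11 (3.21), Vegfa (1.73), Il22ra1 (1.55), Pde4d (1.17), Il1b (-1.12) and Il1f8 (-1.07). The neutrophil, acute-phase and eosinophil-type genes among the 78 were Saa3 (-3.003), Mpo (-1.62), Ly6g (-1.31), Rnase2b (-1.08) and S100a8 (-1.05), all lower in WT. Of 11 neutrophil markers tested 4 were called lower in this difference, against 2.08% of all genes tested. In Saa3, Mpo, Ly6g and S100a8 untreated WT was the highest untreated array. Hair and epidermal genes gave Krt71 (5.74), Krt25 (5.32), Krtap28-13 (4.48), Tchh (3.62), Krtap6-1 (2.13), Sprr4 (1.996), Krtap19-9b (1.895), Krtap19-3 (1.86) and Gsdmc (-1.07). Genes read on probes with repeat letters gave Klra1 (3.17), Pole2 (3.01), Itga1 (2.91), Cd300lf (2.801), Kcnq1 (2.71), Cdcp1 (2.69) and Dmrtb1 (2.36). The remaining genes were Clca3b (6.704), Sntg1 (5.57), Hmox1 (3.73), Zfy1 (-3.503), Kcnh2 (-3.35), Nsrp1 (-3.33), Slc22a30 (-3.22), Grn (-3.13), Tmem52b (2.77), Dlgap3 (-2.72), Kcnip1 (-2.45), Tac4 (-2.28), Myo3b (-1.95), H2-Ob (1.72), Cdk1 (-1.67), Tyrp1 (-1.56), Npas2 (1.29), Postn (-1.21) and Pla2g4e (-1.196). In Clca3b, Kcnh2, Npas2, Nsrp1, Ppbp, Slc22a30, Slfn4, Sntg1, Tnfsf11 and Zfy1 at least 1 WT array was not well above background, so these values rest in part on signals near background.

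In 25 of the 194 genes 1 of the 5 untreated arrays lay far from the other 4, by a gap to its nearest neighbour of more than 0.71 of the whole range. Chance sets about 5% of such groups apart. The genes were named partly for values of these same arrays, so their share cannot be read against that 5%. The share over all genes tested was not computed. Untreated WT was the array set apart in 15 genes. Its log2 levels were Cd300lf (12.08), Cdcp1 (9.91), Dbp (15.64), Dmrtb1 (5.41), Hmgb1 (12.61), Hmox1 (9.41), Isg20 (9.81), Kcnip1 (7.52), Kcnq1 (5.68), Krt14 (18.205), Lgals9 (9.26), Malt1 (9.22), Pole2 (7.46), Slc22a30 (4.45) and Tyrp1 (10.38). Untreated Tlr9-/- was the array set apart in 6 genes, most of them induced by interferon, with Ccl5 (9.097), Cxcl10 (9.396), Cxcl9 (9.07), Iigp1 (10.84), Isg15 (11.24) and Sntg1 (4.72). Untreated Card14-/- was set apart in Arntl (8.98), Clca3b (6.46) and Per3 (9.45), and untreated Tlr7-/- in Dusp2 (9.56).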

How the results depend on the processing

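The arrays of the WT pair had no replicate, and each array held a pool, which limits the precision. On simulated data with known shifts the WT response comparison recovered 74% of genes shifted by 1.5 or 2 log2 units, 94% at 3 and 92% at 4, and called 16 of the unshifted genes. The simulated arrays had independent noise of the size estimated from the repeat arrays, and no differences between groups other than the shifts. These figures therefore do not show how many calls in the real arrays are false. With 75th percentile scaling the median difference over all genes moved by 0.112. No paired analysis was possible because the WT groups share only replicate number 1, with 1 array each.

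The counts of higher and lower calls were 1884 and 1605 in the WT response, 1596 and 1566 against the untreated pools, 841 and 501 for WT minus the knockouts, and 1320 and 1063 in both of the first comparisons. With 75th percentile scaling the lower counts were 799, 690, 287 and 447, in that order of comparisons. In the deposited log2 table they were 739, 543, 200 and 399. With normexp the lower counts were 428, 293, 124 and 215, and the higher counts 1211 in the WT response and 1002 against the pools. Among probes well above background on all arrays fewer genes were tested, and the lower counts were 910 against the pools, 303 for WT minus the knockouts and 682 in both. With no size limit the higher and lower counts were 4899 and 7765, 3378 and 5819, 2346 and 3034, and 2890 and 4970. With the spread of the knockout responses they were 6 and 5 in the WT response and 0 and 0 for WT minus the knockouts, which also had 0 and 0 whenever a repeat array was left out. Apart from the alternatives' own construction the cause was not tested. Within the slide of the WT arrays, chosen after seeing the data, WT minus the knockouts had 448 and 160. Leaving out 1 array gave 3188 to 3471 calls in the WT response and 2949 to 3184 against the pools.

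Of the 194 genes named here the WT call was lost without a repeat array in 15, and the call against the untreated pools was lost without an untreated array in 18. Calls against the pools that were lost include those of Arc, Egr4, Dusp2, Ccl17, Postn and Zbp1, at limma adjusted p of 0.05052 to 0.07483. The mean over a gene's probes turned Arntl to 0.0238 and Col6a3 to 0.32 in the WT response, and Arntl to 0.0754 and Per3 to -0.0279 against the pools. Leaving out probes with repeat letters, an alternative chosen after seeing the data, moved these genes to another probe. The WT response was then -0.96 for Col15a1, -0.0406 for Itga1, -0.47 for Klra1, 0.46 for Pla2g4e and -1.43 for Pole2. Against the pools it was -0.10 for Col15a1, -0.12 for Dmrtb1, -0.42 for Klra1, 0.0763 for Pla2g4e and -1.73 for Pole2. For WT minus the knockouts it was -0.35 for Cdcp1, -0.0171 for Itga1, -0.50 for Klra1, 0.51 for Pla2g4e and -0.48 for Pole2. Of the WT calls of named genes 36 were lost with normexp and 19 in the deposited values.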

Other observations

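Further gene lists had single members that changed. Of 22 antimicrobial and acute-phase genes 2 rose (9.09%, against 7.83% of all genes tested) and 3 fell (13.6%, against 6.67%). Pglyrp1, which binds bacterial peptidoglycan, read 7.81 in IMQ WT and 6.13 in untreated WT on a probe with repeat letters. Lcn2 (lipocalin 2), which holds iron from bacteria, read 10.53 and 9.33. Both were above all 5 untreated arrays and were called against the untreated pools, but the other probe of Lcn2 had 0.35, and its call was lost with the mean over its probes (0.77). Of 19 glucocorticoid and fasting genes 3 rose (15.8%, against 7.83% of all genes tested) and 0 fell. Angptl4, an inhibitor of lipoprotein lipase, read 13.63 in IMQ WT and 11.83 in untreated WT, and Pdk4, a kinase that slows pyruvate oxidation, rose by 1.12. Pde4d, a phosphodiesterase of cAMP, read 10.26 in IMQ WT and 8.10 in untreated WT, and its other probes had 0.16 to 2.38. The adenosine receptor gene Adora2b read 8.61 in IMQ WT and 9.78 in untreated WT.

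Of 25 arachidonate and prostaglandin genes 0 rose and 3 fell (12%, against 6.67% of all genes tested), all also against the untreated pools. Alox12, a lipoxygenase, read 9.25 in IMQ WT and 10.53 in untreated WT, and its other probe had -1.99. The prostaglandin receptor Ptger1 was not well above background in IMQ WT and fell at least 1.65-fold, a call lost without either Card14-/- repeat (limma adjusted p = 0.09075). The phospholipase gene Pla2g4e fell by 1.12 on a probe with repeat letters, with 0.46 on its other probe. Gsta2, a glutathione transferase, read 11.39 in IMQ WT and 12.71 in untreated WT. Mmp13, a collagenase, read 7.36 in IMQ WT and 4.93 in untreated WT, a call lost without either Card14-/- repeat (limma adjusted p = 0.05828). Mmp13 was read on a probe with repeat letters. Of 10 Schwann cell markers 2 fell (20%, against 6.67% of all genes tested). Sox10, a transcription factor of Schwann cells and melanocytes, fell by 1.35 and was also called against the untreated pools. That second call was lost when the untreated WT, Tlr7-/- or Tlr7-/-Tlr9-/- array was left out (differences of -1.19 to -1.25).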
